A study of Mus musculus with 6 samples.

Results

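Structural and assembly genes of the sarcomere outside the myosins, troponins and tropomyosins were compared between Kdm5b cKO and FF hearts of newborn mice. The set was chosen by gene name, with earlier results of these data known, and holds 39 of the 56748 genes in the table. It covers the M-band and titin, proteins that bind the thick filament, the thin filament with its length control, the Z-disc, the intermediate filament of muscle, and factors that fold, assemble or turn over these proteins. RNA was sequenced from whole hearts at postnatal day 1. The cKO hearts carried a knockout of Kdm5b, a histone demethylase gene, that was labelled as cardiac specific, and the control hearts, called FF, were labelled Flox with the genotype FF. Each group had 3 libraries. The labels do not name the driver of the knockout, nor say that libraries came from different mice. The p-values therefore reflect sample-to-sample spread, which may be technical in part.

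The sarcomere is the contractile unit of heart muscle. Its thin actin filaments are anchored and crosslinked at the Z-disc by alpha-actinin, its thick myosin filaments are crosslinked at the M-band by myomesin, and titin spans from the Z-disc to the M-band. Nebulin relatives, leiomodins and tropomodulins set thin filament length, while desmin ties neighbouring Z-discs together. Chaperones and ubiquitin ligases build and renew the lattice, which is still being laid down in the heart of the newborn.

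The libraries held 15658893 to 20339926 reads. FF replicate 3 stood apart, with correlations of 0.880 to 0.909 with the other libraries across genes, against 0.954 to 0.984 among the others. Summed thymocyte markers, 14 genes, reached 346 FPKM in it, against at most 2.33 FPKM in any other library. The counts of members, and the log2 differences of the members described in every library, are therefore given with 6 libraries and without FF replicate 3. Kdm5b itself (ENSMUSG00000042207, chromosome 1, 134487909 to 134563023) stood at 2.80, 3.03 and 2.75 FPKM in cKO replicates 1 to 3, against 3.19, 3.25 and 3.92 FPKM in FF replicates 1 to 3. The cKO values all lay below the FF values, with a log2 difference of -0.20 (SE 0.12, limma adjusted p = 0.447). Reads were summed over the whole gene in whole hearts, where cells other than muscle also contribute, and the exons deleted are not given in the labels.

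Of the 39 members, 36 had a mean of at least 1 FPKM over the 6 libraries and were tested. The others, the M-band gene Myom3, the giant thin filament gene Neb and the Z-disc gene Myot, which are known mainly from skeletal muscle, had at most 1.01 FPKM in any library. Members tended to be higher in cKO hearts. The log2 difference was above 0 for 32 of the 36 with 6 libraries, against 50.7% of all 12678 genes tested, and for 31 without FF replicate 3, against 48.6%. The median of the 36 differences was 0.27 with 6 libraries and 0.34 without FF replicate 3, beside medians of 0.0056 and -0.0093 over all genes tested. All log2 differences are cKO minus FF, taken after adding 1 to each FPKM value, which understates the change of low genes.

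With 6 libraries 0 members passed the threshold of 0.05 in limma with Benjamini-Hochberg adjustment over all genes tested, where 0.166% of all genes did, 0.0710% higher and 0.0947% lower. At an unadjusted p under 0.05, 10 members were higher and 0 lower, which is 27.8% of the 36 against 8.39% of all genes higher. A limma voom fit of the reads also passed 0 members. Without FF replicate 3, 7 members rose past the threshold and 0 fell, which is 19.4% of the 36, where 12.0% of all genes passed in either direction, 5.73% higher and 6.26% lower. They were the M-band gene Myom1, the Z-disc genes Synpo2l, Flnc and Pdlim5, the thin filament gene Nrap, and the assembly and turnover genes Bag3 and Klhl41. Most tested members had a mean above 5 FPKM. Without FF replicate 3, a fit of only the 7000 genes of at least 5 FPKM passed 9.54% higher and 12.5% lower. The cKO and FF values did not overlap for 13 members with 6 libraries, all higher in cKO, or 36.1% of the 36 against 13.5% of all genes tested, and 28.0% of all genes in either direction. With FF replicate 3 left out this held for 22 members, again all higher in cKO, or 61.1% against 25.0%, and 52.0% in either direction. By role, the members that rose were 1 of 4 tested M-band and titin genes, 0 of 2 thick filament binding genes, 1 of 7 thin filament genes, 3 of 13 Z-disc genes, 0 of 2 intermediate filament genes and 2 of 8 assembly and turnover genes.

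**Figure D1:**
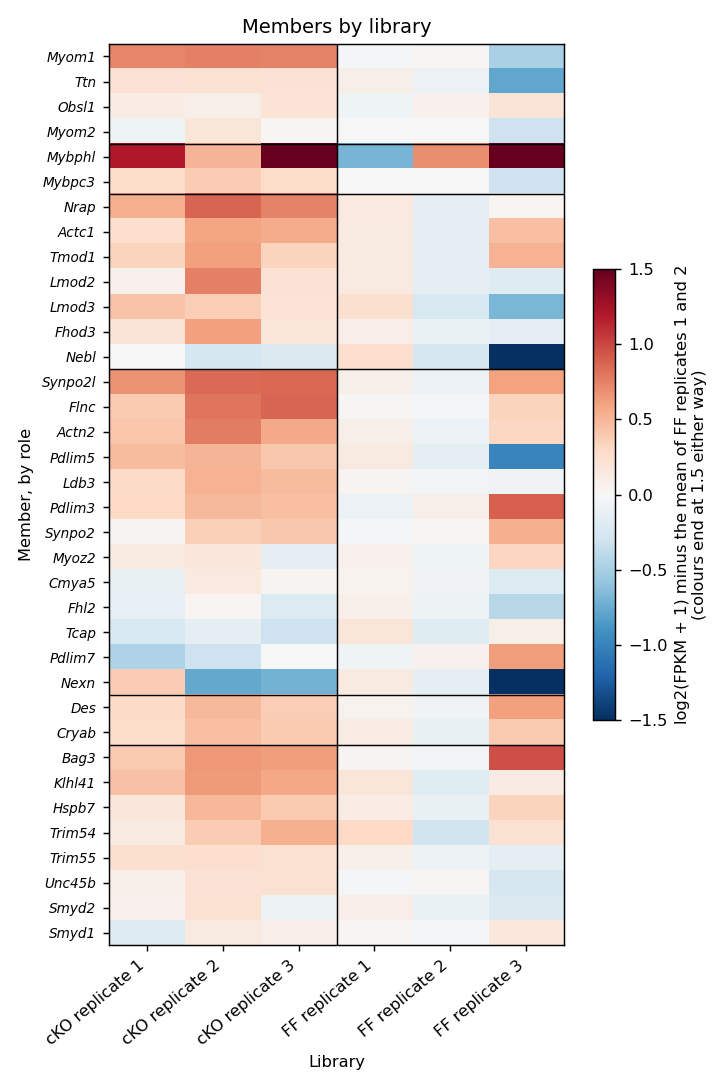
The heat map shows log2(FPKM + 1) of the 36 tested members (rows, grouped by role) in the 3 cKO and 3 FF libraries (columns), as the difference from the mean of FF replicates 1 and 2. Most rows are red in the cKO libraries, while FF replicate 3 holds the deepest blue, at Nexn and Nebl, and a deep red at Mybphl. Colours end at 1.5 either way, so larger differences share the end colour.

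As a share of all reads the 39 members took 3.37%, 3.82% and 3.79% in cKO replicates 1 to 3, against 2.78%, 2.62% and 2.78% in FF replicates 1 to 3. The groups did not overlap. Mitochondrial transcripts, which took 12.8% to 15.7% of the reads in cKO and 18.0% to 19.0% in FF libraries, are part of the total. Outside them the members took 4.0%, 4.41% and 4.34% in cKO libraries and 3.43%, 3.19% and 3.44% in FF libraries. In whole hearts a larger share of muscle cells and more RNA per cell cannot be told apart. The summed level of 9 cardiomyocyte markers outside the set, all detected in every library, was 6344 to 7284 FPKM in cKO and 6011 to 7260 FPKM in FF hearts, so the groups overlapped. Of these 9, the sodium-calcium exchanger gene Slc8a1 rose in the fit without FF replicate 3 and 0 fell past the threshold. Pln, Tnnc1, Tnni3 and Tnnt2 had log2 differences of -0.56, -0.43, -0.37 and -0.05 in that fit, so the list moved both ways. Summed ventricular markers, 7 genes, were 4440 to 5106 FPKM in cKO and 5184 to 6681 FPKM in FF hearts, and did not overlap. Most of that sum came from the light chain genes Myl2 and Myl3. Without FF replicate 3 their log2 differences were -0.67 and -0.53 (limma adjusted p = 0.0743 and 0.105). In that fit 4 of the 7 genes were below 0 and 0 fell past the threshold, while 2 genes, Myh7 and Hey2, rose past it. Macrophage markers, 7 genes, summed to 41.7 to 50.1 FPKM in cKO and 55.4 to 114 FPKM in FF hearts, without overlap. Epicardial markers, 6 genes, summed to 27.0 to 34.8 FPKM in cKO and 35.7 to 80.2 FPKM in FF hearts, again without overlap. The epicardial list moved both ways in the fit without FF replicate 3. There Wt1 and Aldh1a2 fell, Krt19 rose, and 4 of the 6 log2 differences were above 0. Fibroblast markers, 8 genes, summed to 476 to 607 FPKM in cKO and 590 to 856 FPKM in FF hearts, and endothelial markers, 8 genes, to 234 to 285 FPKM in cKO and 250 to 381 FPKM in FF hearts. All genes of these 5 lists were above 0 in every library. Erythroid markers, 7 genes above 0 in every library, summed to 891 to 1096 FPKM in cKO and 753 to 1554 FPKM in FF hearts. All 5 of them that were tested had log2 differences above 0 in the fit without FF replicate 3, and 2 rose. The part of these shifts in the members' values was not tested.

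Promoter windows of RefSeq on GRCm38.p6, from 250 bases before to 50 after each annotated start, were found for 30 members, with 38 windows in all, and not used for Fhod3, Lmod3, Tcap, Cryab, Nexn, Trim55, Neb, Myot and Myom2. A CArG box, the motif of serum response factor, was in 18.4% of member windows against 1.63% of all 32851 windows, on either strand. The MEF2 site was in 23.7% against 3.19%. The TEAD motif GGAATG was in 21.1% against 14.7%, AGATAA, the GATA motif, in 15.8% against 11.2%, TATAAA in 13.2% against 13.6%, and the heat shock element GAANNTTC in 2.63% against 7.86%. By gene, 5 of the 30 members had a CArG box, 8 a MEF2 site and 7 the TEAD motif. Overlapping windows of Ldb3 repeat the same CArG box, and those of Flnc the same GGAATG. MEF2 sites and TATAAA can overlap. A match describes the letters of the window and is not a binding site shown in these hearts.

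Windows of 4 members that rose without FF replicate 3, and that of Actc1, the most abundant member, are shown as examples that carry these motifs. Matches in Flnc (GGAATG) and Pdlim5 (TATAAA), which also rose, are not shown. Members that did not pass carried these motifs too. Fhl2, Ldb3 and Nebl also had a CArG box. Fhl2, Mybpc3, Myoz2, Synpo2, Ttn and the untested Myom3 also had a MEF2 site. Whether a motif goes with a rise was not tested. Capitals mark every match to the motifs above. The Myom1 window (chr17:71019307-71019606, plus strand) holds a CArG box that begins 99 bases before the start and a GATA motif just upstream of it. The Synpo2l window (chr14:20668305-20668604, minus strand) holds a MEF2 site at 109 bases before the start, and the window of its other annotated start holds another. Klhl41 (chr2:69669870-69670169, plus strand) has a MEF2 site at 63 bases before the start. Bag3 (chr7:128523333-128523632, plus strand) has the only heat shock element among the member windows, at base 43 after the start. Actc1 (chr2:114052826-114053125, minus strand) has a CArG box at 47 bases before the start and TATAAA at base 34 after it. The Nrap window had no match.
Myom1: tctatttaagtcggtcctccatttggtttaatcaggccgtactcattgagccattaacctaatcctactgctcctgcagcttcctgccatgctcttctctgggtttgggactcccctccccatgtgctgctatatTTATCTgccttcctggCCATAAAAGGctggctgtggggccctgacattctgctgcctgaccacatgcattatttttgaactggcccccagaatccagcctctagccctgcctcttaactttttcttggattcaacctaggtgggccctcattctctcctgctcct
Synpo2l: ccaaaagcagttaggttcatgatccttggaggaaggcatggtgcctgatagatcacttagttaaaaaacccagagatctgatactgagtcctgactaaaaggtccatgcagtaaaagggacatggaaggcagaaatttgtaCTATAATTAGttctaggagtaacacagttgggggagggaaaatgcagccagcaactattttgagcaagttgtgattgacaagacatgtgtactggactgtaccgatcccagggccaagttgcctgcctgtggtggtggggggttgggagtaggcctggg
Klhl41: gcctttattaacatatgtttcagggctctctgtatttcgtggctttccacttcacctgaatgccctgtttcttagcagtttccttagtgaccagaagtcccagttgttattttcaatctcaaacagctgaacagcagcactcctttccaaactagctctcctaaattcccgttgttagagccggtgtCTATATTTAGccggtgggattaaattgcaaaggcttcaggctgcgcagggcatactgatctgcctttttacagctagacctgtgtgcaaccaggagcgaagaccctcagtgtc
Bag3: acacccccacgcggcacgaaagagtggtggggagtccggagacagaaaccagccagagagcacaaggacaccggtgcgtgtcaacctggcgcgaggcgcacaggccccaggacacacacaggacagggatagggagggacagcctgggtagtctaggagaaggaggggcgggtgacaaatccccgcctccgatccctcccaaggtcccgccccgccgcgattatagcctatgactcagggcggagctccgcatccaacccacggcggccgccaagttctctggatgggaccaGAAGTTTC
Actc1: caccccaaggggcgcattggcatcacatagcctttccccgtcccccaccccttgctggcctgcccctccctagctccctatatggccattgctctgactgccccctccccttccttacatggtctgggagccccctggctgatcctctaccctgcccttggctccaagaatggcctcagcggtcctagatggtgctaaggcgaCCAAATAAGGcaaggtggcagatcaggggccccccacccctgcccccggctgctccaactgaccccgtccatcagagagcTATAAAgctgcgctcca

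At the M-band, Myom1 rose and its relative Myom2 did not pass. Myom1 (ENSMUSG00000024049, chromosome 17, 71309628 to 71433851), which encodes the myomesin that crosslinks thick filaments, stood at 137, 140 and 138 FPKM in cKO replicates 1 to 3, against 80.8, 83.5 and 58.2 FPKM in FF replicates 1 to 3. Every cKO value lay above every FF value, and the cKO libraries differed little among themselves. The means were 138 ± 1.54 FPKM in cKO and 74.2 ± 13.9 FPKM in FF hearts (SD, n = 3 each), 1.87-fold higher in cKO. Against FF replicates 1 and 2 alone the ratio of means was 1.68. The log2 difference was 0.91 (SE 0.16, adjusted p = 0.0706, limma) with 6 libraries and 0.75 (95% interval 0.54 to 0.95, adjusted p = 0.0152, limma) without FF replicate 3. Between 11657 and 31435 reads per library lay behind these values. The gene overlaps Myl12a on the other strand, and whether reads were counted by strand is not stated in the labels.

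Myom2, the myomesin of fast and adult muscle, was at 79.8, 94.7 and 85.2 FPKM in cKO libraries and 83.8, 82.8 and 67.0 FPKM in FF libraries, with the groups overlapping. Its log2 difference was 0.15 (SE 0.14) with 6 libraries and 0.05 (95% interval -0.19 to 0.30) without FF replicate 3. The ratio of Myom1 to Myom2 within a library does not depend on how libraries are scaled. It was 1.71, 1.48 and 1.63 in cKO libraries, against 0.964, 1.01 and 0.869 in FF libraries, so FF replicate 3 lay with the other FF libraries in this measure. Myom1 was the more abundant of the pair in all 3 cKO libraries, and the pair was near equal in the FF libraries.

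Ttn, the titin gene, with an exon length of 117334 bases in the table, was at 35.9, 36.2 and 35.7 FPKM in cKO replicates 1 to 3 and 32.6, 28.9 and 17.5 FPKM in FF replicates 1 to 3. The groups did not overlap, and FF replicate 3 was the lowest. The log2 difference was 0.48 (SE 0.23, limma adjusted p = 0.336) with 6 libraries and 0.22 (95% interval 0.01 to 0.43, adjusted p = 0.134) without FF replicate 3. The ratio of Myom1 to Ttn was 3.81, 3.87 and 3.87 in cKO libraries, against 2.48, 2.89 and 3.34 in FF libraries. Obsl1, an obscurin relative that links titin and myomesin at the M-band, was at 20.9, 20.5 and 22.4 FPKM in cKO libraries. In FF libraries it was at 18.4, 20.2 and 22.1 FPKM, and the groups overlapped through FF replicate 3. The log2 difference of Obsl1 was 0.07 (SE 0.12, limma adjusted p = 0.797) with 6 libraries and 0.13 (adjusted p = 0.331) without FF replicate 3.

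**Figure D2:**
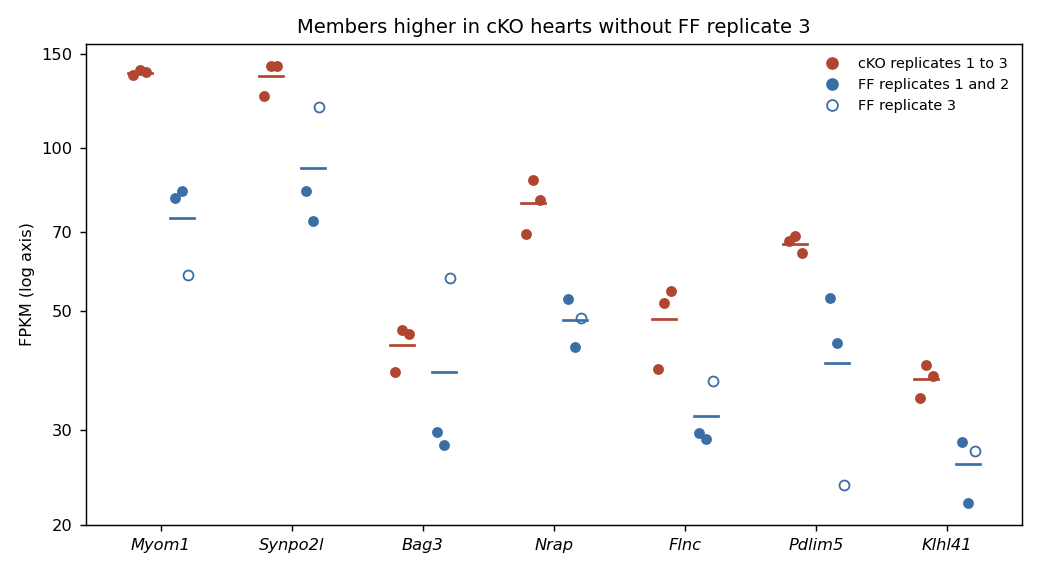
Each point is the FPKM (log axis) of a member in a library, for the 7 members past the threshold without FF replicate 3, with cKO left of FF and bars at the means of all 3 libraries of a group. Myom1, Nrap, Flnc, Pdlim5, Klhl41 and Synpo2l have every cKO value above every FF value, while FF replicate 3 lies at 57.4 FPKM for Bag3, above all cKO values.

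Among proteins that bind the thick filament, Mybpc3 encodes cardiac myosin binding protein C, which regulates crossbridge cycling. It was at 816, 881 and 820 FPKM in cKO replicates 1 to 3, against 678, 673 and 543 FPKM in FF replicates 1 to 3. The groups did not overlap, yet neither fit passed it, with a log2 difference of 0.42 (SE 0.14, limma adjusted p = 0.193) and of 0.31 (95% interval 0.01 to 0.61) without FF replicate 3.

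Mybphl, a related gene of the atria and conduction system, had the largest SE of all tested members. It was at 10.6, 6.19 and 20.6 FPKM in cKO replicates 1 to 3 and 2.11, 7.15 and 50.7 FPKM in FF replicates 1 to 3. The groups overlapped, and the log2 difference was 0.15 (SE 0.99) with 6 libraries and 1.27 (95% interval -0.05 to 2.59) without FF replicate 3. The atrial light chain Myl7 was at 337, 199 and 599 FPKM in the cKO libraries and 45.3, 357 and 1019 FPKM in the FF libraries. Summed atrial markers, 10 genes all detected in every library, ran from 616 to 1629 FPKM in cKO and from 173 to 1962 FPKM in FF hearts, lowest in FF replicate 1 and highest in FF replicate 3, as Mybphl was. With FF replicate 3 left out, all 10 had log2 differences above 0, with a median of 1.05, 7 did not overlap between the groups, and Nppa and Tbx5 rose. The part of atrial tissue in the values of Mybphl and of the members that rose in that fit was not tested.

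Of the thin filament genes, Nrap rose without FF replicate 3. Nrap (ENSMUSG00000049134, chromosome 19, 56308467 to 56378469), a nebulin relative that acts in the assembly of actin bundles into new myofibrils, was at 69.4, 87.5 and 80.3 FPKM in cKO replicates 1 to 3, against 52.6, 42.7 and 48.5 FPKM in FF replicates 1 to 3. All cKO values were higher than all FF values, and FF replicate 3 lay between the other FF libraries. Means were 79.1 ± 9.11 FPKM in cKO and 47.9 ± 4.93 FPKM in FF hearts (SD, n = 3 each), 1.65-fold higher in cKO. The log2 difference was 0.71 (SE 0.14, adjusted p = 0.0831, limma) with 6 libraries and 0.72 (95% interval 0.39 to 1.05, adjusted p = 0.0302, limma) without FF replicate 3. The gene overlaps Habp2 on the other strand.

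Nebl, the nebulin relative that links actin to the cardiac Z-disc, did not follow it. Its values were 25.4, 21.0 and 21.8 FPKM in cKO libraries and 30.4, 21.2 and 7.19 FPKM in FF libraries, and its log2 difference was 0.40 (SE 0.47) with 6 libraries but -0.16 (95% interval -0.56 to 0.24) without FF replicate 3. Nrap over Nebl was 2.73, 4.17 and 3.69 in cKO libraries, against 1.73, 2.02 and 6.75 in FF libraries, where FF replicate 3 was above all others.

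Actc1, cardiac alpha-actin, was by FPKM the most abundant member in both groups, at 6266, 7931 and 7692 FPKM in cKO replicates 1 to 3 and 5742, 4784 and 7155 FPKM in FF replicates 1 to 3. It made up 57.4% to 61.7% of the summed FPKM of the members in cKO and 55.8% to 64.1% in FF hearts. The groups overlapped through FF replicate 3, and the log2 difference was 0.32 (SE 0.19, limma adjusted p = 0.436) with 6 libraries and 0.47 (SE 0.26, adjusted p = 0.253) without FF replicate 3. Reads of near-identical actin genes may be shared with it.

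The genes that set thin filament length did not pass. Tmod1, which caps the pointed end, was at 62.4, 76.2 and 62.7 FPKM in cKO and 54.4, 45.0 and 71.2 FPKM in FF libraries, with a log2 difference of 0.25 (SE 0.19, limma adjusted p = 0.545) with 6 libraries and 0.43 (95% interval 0.11 to 0.74, adjusted p = 0.0815) without FF replicate 3. Lmod2, the leiomodin that lengthens cardiac thin filaments, was at 119, 191 and 131 FPKM in cKO and 124, 103 and 99.1 FPKM in FF libraries, with log2 differences of 0.41 with 6 libraries and 0.35 without FF replicate 3. Lmod3 stood at 33.8 to 39.8 FPKM in cKO and 17.9 to 34.9 FPKM in FF hearts, and the actin-assembling formin Fhod3 at 54.1 to 73.5 and 42.8 to 50.9 FPKM in cKO and FF hearts. The ratio of Lmod2 to Tmod1 was 1.90 to 2.51 in cKO and 1.39 to 2.29 in FF libraries and overlapped.

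The Z-disc genes held the widest range of log2 differences of any role with 6 libraries, from -0.46 to 0.79. Synpo2l (ENSMUSG00000039376, chromosome 14, 20709014 to 20718422), an actin-associated protein of the cardiac Z-disc, was at 125, 142 and 142 FPKM in cKO replicates 1 to 3, against 83.3, 73.4 and 119 FPKM in FF replicates 1 to 3. The groups did not overlap, though FF replicate 3 came close to cKO replicate 1. The log2 difference was 0.59 (SE 0.20, adjusted p = 0.195, limma) with 6 libraries and 0.79 (95% interval 0.53 to 1.06, adjusted p = 0.0172, limma) without FF replicate 3. Its relative Synpo2, also expressed in smooth muscle, was far lower, at 5.14 to 6.85 FPKM in cKO and 4.84 to 7.63 FPKM in FF hearts. Synpo2l over Synpo2 was 24.4, 21.5 and 20.8 in cKO libraries and 17.2, 14.5 and 15.6 in FF libraries, which did not overlap.

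Flnc (ENSMUSG00000068699, chromosome 6, 29433255 to 29461882) encodes the muscle filamin, a crosslinker of actin at the Z-disc and membrane. It was at 38.9, 51.6 and 54.4 FPKM in cKO replicates 1 to 3, against 29.6, 28.9 and 37.0 FPKM in FF replicates 1 to 3. The nearest values, cKO replicate 1 and FF replicate 3, were 38.9 and 37.0 FPKM. Its log2 difference was 0.58 (SE 0.18, adjusted p = 0.170, limma) with 6 libraries and 0.69 (95% interval 0.32 to 1.05, adjusted p = 0.0389, limma) without FF replicate 3.

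Pdlim5 (ENSMUSG00000028273, chromosome 3, 141945351 to 142101457), a PDZ and LIM domain scaffold of the Z-disc, was at 67.3, 68.8 and 63.8 FPKM in cKO replicates 1 to 3 and 52.8, 43.6 and 23.7 FPKM in FF replicates 1 to 3. FF replicate 3 was the lowest library. Without it the log2 difference was 0.46 (95% interval 0.20 to 0.72, adjusted p = 0.0439, limma), against 0.79 (SE 0.28, adjusted p = 0.222, limma) with 6 libraries. The mean of the cKO libraries was 1.66-fold that of all FF libraries and 1.38-fold that of FF replicates 1 and 2. Its relatives were high, not low, in FF replicate 3. Pdlim3 was at 15.6 to 17.9 FPKM in cKO libraries and at 11.7, 13.4 and 24.2 FPKM in FF replicates 1 to 3. Pdlim7 was at 9.40, 10.6 and 13.4 FPKM in cKO libraries, against 12.7, 13.9 and 21.1 FPKM in FF libraries, and had the lowest log2 difference of the tested members with 6 libraries, -0.46 (SE 0.22, limma adjusted p = 0.334), against -0.25 (adjusted p = 0.273) without FF replicate 3. Pdlim5 over Pdlim7 was 7.16, 6.49 and 4.78 in cKO libraries and 4.15, 3.13 and 1.12 in FF libraries, with no overlap.

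**Figure D3:**
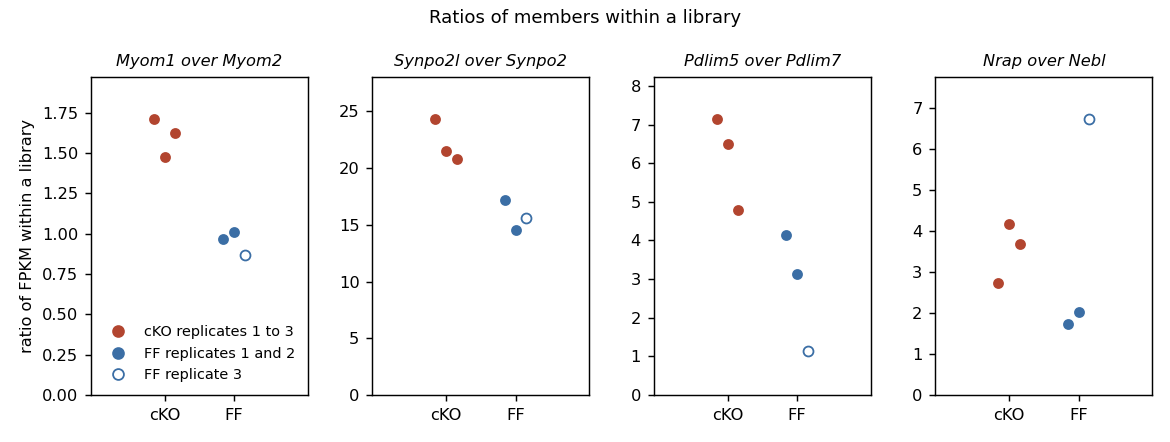
Each panel gives the ratio of the FPKM of a pair of related members within each library, cKO left of FF, on linear axes from 0. The groups are apart for Myom1 over Myom2, Synpo2l over Synpo2 and Pdlim5 over Pdlim7, while for Nrap over Nebl FF replicate 3 is the highest of the 6 libraries. The pairs were chosen after values were seen. Of ratios not drawn, Myom1 over Ttn did not overlap. Lmod2 over Tmod1, Actn2 over Actc1, Smyd1 over Smyd2, Trim55 over Trim54, Bag3 over Hspb7, Flnc over Actn2 and Mybpc3 over Ttn overlapped.

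Actn2 and Ldb3 were near the threshold in the fit without FF replicate 3. Actn2, alpha-actinin, was at 560, 709 and 619 FPKM in cKO replicates 1 to 3, against 443, 394 and 517 FPKM in FF replicates 1 to 3. Its groups did not overlap, and the log2 difference was 0.48 (SE 0.16, limma adjusted p = 0.192) with 6 libraries and 0.58 (95% interval 0.23 to 0.94, adjusted p = 0.0515) without FF replicate 3. Ldb3, a PDZ and LIM domain partner of alpha-actinin, was at 160, 188 and 181 FPKM in cKO and 135, 126 and 126 FPKM in FF libraries (log2 difference 0.45, limma adjusted p = 0.139, with 6 libraries and 0.43, adjusted p = 0.0529, without FF replicate 3). The ratio of Actn2 to Actc1 was 0.0893, 0.0894 and 0.0805 in cKO and 0.0771, 0.0824 and 0.0723 in FF libraries, and the groups overlapped.

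Other Z-disc members lay near 0 or below. Tcap, telethonin, which caps the titin end, was at 105, 111 and 99.0 FPKM in cKO and 140, 109 and 131 FPKM in FF libraries, with a log2 difference of -0.26 (SE 0.14, limma adjusted p = 0.390) with 6 libraries and -0.23 (adjusted p = 0.267) without FF replicate 3. Myoz2, a calcineurin-binding calsarcin, ran from 103 to 128 FPKM in cKO and from 108 to 142 FPKM in FF hearts. The LIM protein gene Fhl2 ran from 406 to 478 and from 350 to 493 FPKM in cKO and FF hearts, and Cmya5, myospryn, from 10.5 to 12.7 and from 9.76 to 11.9 FPKM. Nexn, an actin-binding Z-disc protein named here after its values were seen, was at 213, 95.4 and 99.2 FPKM in cKO libraries and 180, 149 and 20.6 FPKM in FF libraries. The replicates of both groups spread widely and the groups overlapped, and the log2 difference was 0.61 (SE 0.82) with 6 libraries and -0.37 (SE 0.35) without FF replicate 3.

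Des and Cryab, desmin and the small heat shock protein that guards it, had higher values in every cKO library than in FF replicates 1 and 2, while FF replicate 3 lay above all cKO libraries for Des and within their range for Cryab. Des was at 218, 251 and 231 FPKM in cKO libraries, against 186, 172 and 275 FPKM in FF libraries. Cryab, which overlaps Hspb2 on the other strand, was at 319, 360 and 347 FPKM in cKO libraries and 285, 244 and 347 FPKM in FF libraries. With FF replicate 3 left out the log2 differences were 0.38 (95% interval 0.12 to 0.64, limma adjusted p = 0.0678) and 0.37 (95% interval 0.08 to 0.67, adjusted p = 0.0909), short of the threshold. With 6 libraries they were 0.17 (adjusted p = 0.699) and 0.24 (adjusted p = 0.486). Summed smooth muscle markers outside the set, 8 genes all detected in every library, were 393 to 497 FPKM in cKO and 302 to 470 FPKM in FF hearts. With FF replicate 3 left out the FF sums were 302 and 326 FPKM, below all cKO sums. Most of each sum was Acta2, at 346 to 446 FPKM in cKO and 260 and 271 FPKM in FF replicates 1 and 2. In that fit Acta2 and Cnn1 rose (limma adjusted p = 0.0453 and 0.0443), while Myh11, Smtn, Mylk and Actg2 had log2 differences below 0. Of the 9 tested genes of the full list, which also holds Synpo2 and Des, 5 were above 0 and 4 below. The part of these genes in the desmin values was not tested.

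Of the factors that assemble or renew the sarcomere, Klhl41 and Bag3 rose without FF replicate 3. Klhl41 (ENSMUSG00000075307, chromosome 2, 69500464 to 69514574), a kelch adaptor that stabilizes nebulin in skeletal muscle, was at 34.4, 39.6 and 37.9 FPKM in cKO replicates 1 to 3, against 28.5, 22.0 and 27.5 FPKM in FF replicates 1 to 3. The groups did not overlap, and the log2 difference was 0.51 (SE 0.14, adjusted p = 0.147, limma) with 6 libraries and 0.55 (95% interval 0.24 to 0.87, adjusted p = 0.0448, limma) without FF replicate 3. The skeletal muscle markers Myod1, Myh2 and Myh4 were at 0 in every library and Myog at no more than 0.203 FPKM. The 18 skeletal muscle markers outside the set summed to 376 to 446 FPKM in cKO and 266 to 460 FPKM in FF hearts, nearly all from Ckm and Acta1, which the newborn heart also expresses and which both rose in the fit without FF replicate 3. Klhl41 is itself on that marker list, and the part of these genes in its values was not tested.

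Bag3 (ENSMUSG00000030847, chromosome 7, 128125340 to 128148705), the cochaperone that clears damaged filamin, was at 38.5, 46.0 and 45.2 FPKM in cKO libraries and 29.8, 28.2 and 57.4 FPKM in FF libraries. FF replicate 3 was the highest of all 6 libraries, and the groups separated without it. The gene overlaps 2610306O10Rik on the same strand. The log2 difference was 0.24 (SE 0.28, adjusted p = 0.703, limma) with 6 libraries and 0.56 (95% interval 0.30 to 0.81, adjusted p = 0.0299, limma) without FF replicate 3. Hspb7, a small heat shock protein of the heart, was at 364, 456 and 422 FPKM in cKO and 348, 299 and 405 FPKM in FF libraries and did not pass, with log2 differences of 0.24 with 6 libraries and 0.35 without FF replicate 3.

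Other folding and turnover members did not pass in either fit. Unc45b, the myosin chaperone, was at 47.3, 52.2 and 52.6 FPKM in cKO and 44.3, 45.1 and 37.2 FPKM in FF libraries, groups that did not overlap (log2 difference 0.26, limma adjusted p = 0.346, and 0.18, adjusted p = 0.211, without FF replicate 3). Smyd1, a muscle methyltransferase needed for myofibril assembly, was at 97.5, 123 and 120 FPKM in cKO and 114, 110 and 125 FPKM in FF libraries, with a log2 difference of -0.04 (95% interval -0.37 to 0.29) with 6 libraries and 0.01 (95% interval -0.29 to 0.31) without FF replicate 3. Smyd2 was at 35.1 to 43.5 FPKM in cKO and 31.7 to 39.8 FPKM in FF hearts. The muscle ring finger gene Trim55 was at 162, 162 and 161 FPKM in cKO and 145, 129 and 124 FPKM in FF libraries, without overlap and short of the threshold (log2 difference 0.29, limma adjusted p = 0.265, with 6 libraries and 0.24, adjusted p = 0.135, without FF replicate 3), and Trim54 at 3.60 to 5.04 and 2.39 to 4.16 FPKM in cKO and FF hearts.

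**Figure D4:**
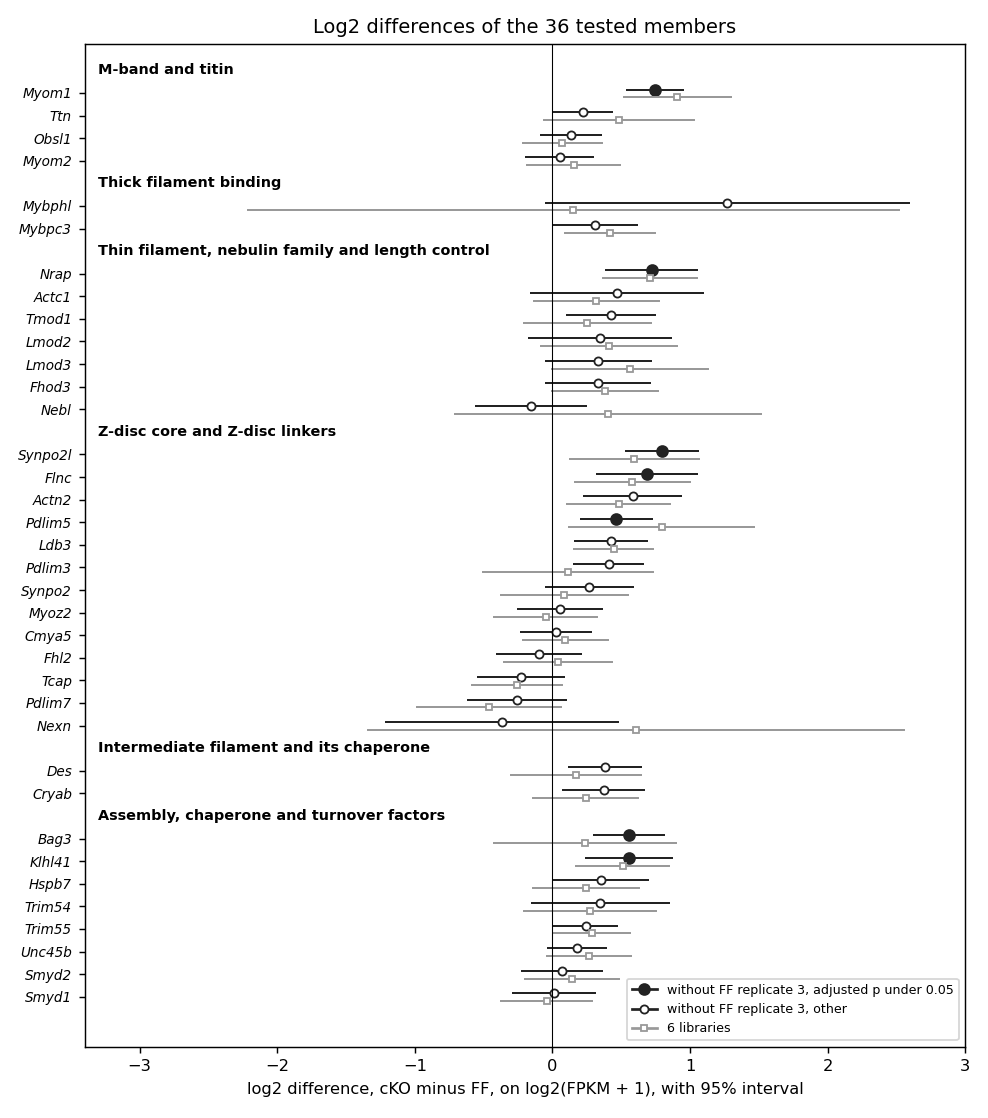
Log2 differences, cKO minus FF, of the 36 tested members by role with 95% intervals, as black circles without FF replicate 3 and grey squares with 6 libraries. The 7 filled circles passed the adjusted threshold, and all lie above 0. Mybphl and Nexn have the widest intervals with 6 libraries.

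FF replicate 3 was the lowest of the 6 libraries for 16 of the 36 tested members and the highest for 8. FF replicate 2 was the lowest for 12, FF replicate 1 for 4 and a cKO library for 4. The log2 difference changed sign without FF replicate 3 for 5. Its deviation from the mean of FF replicates 1 and 2 went with the GC content of the gene, with Pearson's r of 0.476 and Spearman's rho of 0.424 across 36 members that share the same libraries, against a rho of 0.639 across 12473 genes tested. Nexn and Nebl, with 39.6% and 40.1% GC, lay 2.93 and 1.69 log2 units below the other FF libraries, while Myoz2, with 39.7% GC, lay 0.32 above them. Mybphl lay 3.36 above. With a correction for GC content per library, 4 members rose with all 6 libraries, Myom1, Nrap, Synpo2l and Flnc, where 2.25% of all genes rose.

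**Figure D5:**
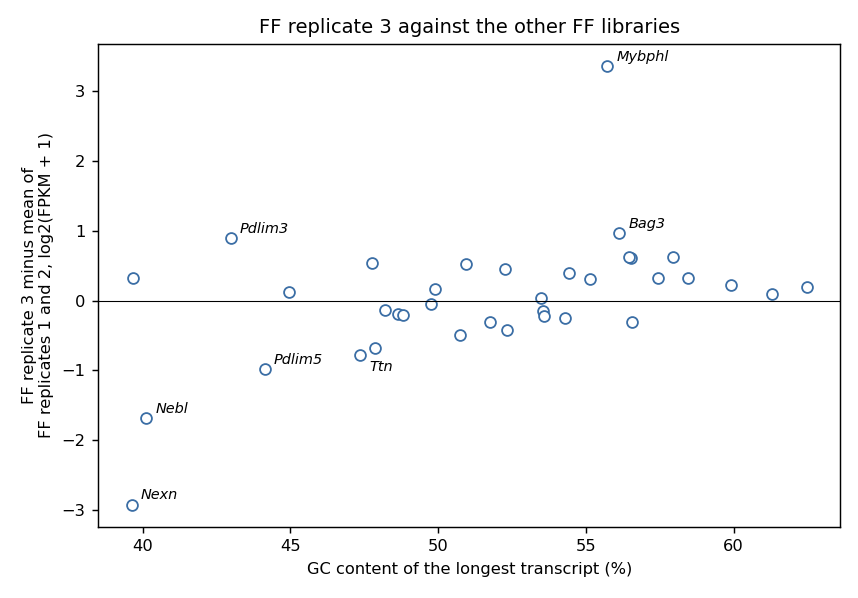
For each tested member the deviation of FF replicate 3 from the mean of FF replicates 1 and 2, in log2(FPKM + 1), is plotted against the GC content of its longest GENCODE M21 transcript. Nexn and Nebl at the low end of GC lie far below 0, and Mybphl, at 55.7% GC, lies far above.

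The count of 7 depended on which other library was left out. With FF replicate 3 already left out, 0 members passed when cKO replicate 3, FF replicate 1 or FF replicate 2 was also left out, and Myom1 and Synpo2l alone passed without cKO replicate 2. Where FF replicate 1 or 2 was left out, the lone FF library was assumed to vary like the cKO libraries. Leaving out cKO replicate 1 gave 10 members past the threshold, of which Nexn was lower and the others higher. Of all genes tested, 5.55% were then higher past the threshold, against 1.82% without cKO replicate 2, 0.387% without cKO replicate 3 and 0 genes without FF replicate 1 or 2.

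Other genes of the sarcomere and the wider cytoskeleton moved both ways. A list outside the set had 39 tested genes of the Z-disc, M-band and broadly expressed cytoskeleton. It also held other muscle genes, among them Tnnc1, which is counted again with the troponins below. Of the 39, 0 passed with 6 libraries, and 6 rose and 2 fell without FF replicate 3. That is 20.5%, against 12.0% of all genes in either direction in that fit. Ankrd1, a titin-binding stress gene, was at 392, 403 and 423 FPKM in cKO and 200, 159 and 133 FPKM in FF libraries. Svil, supervillin, had a log2 difference of 0.66 (limma adjusted p = 0.0172). The intermediate filament gene Nes, nestin, was at 13.5, 13.1 and 13.6 FPKM in cKO, against 31.5, 31.0 and 18.5 FPKM in FF libraries, and fell by 1.16 (limma adjusted p = 0.0066). The broadly expressed capping gene Tmod3 fell by 0.68 (adjusted p = 0.0168), while the log2 difference of its muscle relative Tmod1 was 0.43 and did not pass (adjusted p = 0.0815).

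Of 15 myosin, troponin and tropomyosin genes, Myh7, the slow myosin heavy chain gene, rose in both fits. It was at 583, 751 and 685 FPKM in cKO and 95.6, 122 and 80.0 FPKM in FF libraries, with a log2 difference of 2.76 (limma adjusted p = 0.0168) with 6 libraries. In the fit without FF replicate 3 Tpm2, beta-tropomyosin, rose by 0.76, and Tpm3 and Tpm4 fell by 0.56 and 0.74 (limma adjusted p = 0.0237, 0.0211 and 0.0172). Among 33 tested folding and turnover genes, 1 rose with 6 libraries, the kelch gene Klhl38, at 6.66, 6.22 and 4.81 FPKM in cKO and 0.424, 0.537 and 0.945 FPKM in FF libraries. Leaving out FF replicate 3, 6 of the 33 rose and 1 fell, which is 21.2%, against 12.0% of all genes in either direction. Fbxo32, the ubiquitin ligase atrogin-1, was at 13.3, 12.1 and 10.6 FPKM in cKO, against 4.49, 5.19 and 3.34 FPKM in FF libraries, and the muscle kinase gene Alpk3 had a log2 difference of 0.74 (limma adjusted p = 0.0164). The small heat shock gene Hspb3 fell by 0.51 (adjusted p = 0.0336). Of 18 tested cardiac and muscle transcription factors and cofactors, Srf among them, 0 passed with 6 libraries, and Mef2d and Tbx5 rose without FF replicate 3, by 0.41 and 0.96 on the log2 scale (limma adjusted p = 0.0430 and 0.0471). That is 11.1% of the list, near the 12.0% of all genes that passed in that fit, and Tbx5 is also on the atrial marker list described beside Mybphl.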

How the data were processed

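RNA of newborn mouse hearts was sequenced in 6 libraries. Per the labels' protocols, the miRNeasy micro kit gave total RNA, and the Ovation Ultralow V2 kit was used for the libraries. The authors deposited FPKM values, scaled by gene length and library size, for 56748 genes. Tools named in the submitters' processing notes are FastQC, TopHat2 2.0.13, Subread, featureCounts and edgeR, in no stated order, and the builds named are GRCh38, mm10 and GRCm39, with no stated role. No source used here gives the annotation release or strand setting. Coordinates are those of the deposited table. Of 52125 gene identifiers shared with GENCODE M21 on GRCm38, 1524 had the same start and end, so the coordinates are not read as GRCm38. The promoter windows are on GRCm38.p6.

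FPKM times gene length was a whole multiple of 1 step per library. Of the values under 200 reads, 100% lay within 0.1 of a whole number, which gave the reads per gene and library. Median-ratio factors of the FPKM were equal in all 6 libraries, so the deposited values already carry that scaling.

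The test was limma (version 3.58.1, R 4.3.3) of cKO against FF on log2(FPKM + 1), with a variance trend on mean level and Benjamini-Hochberg adjustment over 12678 genes with a mean of at least 1 FPKM. The threshold was an adjusted p of 0.05. The steps were tested on simulated data with the same spread in every library. That run does not cover an outlying library such as FF replicate 3. Means are ± SD. The members and lists were chosen with earlier results of these data known. Values in every library are given for members past the threshold in either fit, for the highest and lowest tested log2 difference of each role, for Ttn and for the most abundant member. Further members, the ratios and the motifs were chosen after values were seen. Of other lists, up to 3 genes per direction with the smallest p are named, apart from a result that is not reported here.

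Alternatives were other pseudocounts (0.1 and 0.5), other filters (none, or a mean of at least 5 FPKM), median-ratio scaling, quantile normalization, scaling outside mitochondrial and haemoglobin genes, a robust prior, library weights, voom, only protein-coding genes, a block for replicate number, a GC correction, and leaving out each library.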

Additional observations from a re-analysis of the deposited data

How the results depend on the processing

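With 6 libraries, 0 members passed in 12 of 14 alternatives, the exceptions being library weights (21 members, all higher, where 16.9% of all genes were higher) and the GC correction (4 members, 2.25% of all genes higher). Leaving out each library gave 0 to 7. Without FF replicate 3 the count of 7 became 1 with no filter, 14 with quantile normalization, 11 with library weights, 14 with voom and 12 with protein-coding genes alone, where 0.0654%, 6.67%, 8.33%, 9.09% and 10.3% of all genes were higher, in that order, and 0 to 10 when each further library was left out. The median log2 difference of the members stayed above 0 in all alternatives run. It was 0.41 with quantile normalization and 0.40 with library weights for 6 libraries, and 0.44 with quantile normalization without FF replicate 3. Median-ratio scaling left the 6-library values as they were. The count over all genes ran from 0 to 4300 with 6 libraries and from 0 to 2433 without FF replicate 3. The cause of these shifts was not tested.

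Deviations from the group means had correlations of 0.383, -0.238 and 0.239 between cKO and FF samples of the same replicate number. Samples of unlike number were not compared, so these values cannot decide whether the numbers pair the samples. With the replicate block 0 members passed, with 6 libraries and without FF replicate 3, and with the block and the GC correction 0 and 2 passed. Of all genes without FF replicate 3, 1.03% were higher with the block and 2.92% with the block and the GC correction.

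Near 0, directions changed. With 6 libraries Mybphl ran from -0.76 to 1.27 and Smyd1 from -0.10 to 0.063 when each library was left out, and Smyd1 was at 0.096 with quantile normalization and 0.056 with library weights. Without FF replicate 3 Smyd1 was at -0.033 with the replicate block, at -0.042 with the block and the GC correction, and from -0.049 to 0.12 when each further library was left out.

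Depth limits Trim54, with 55 to 157 reads per library, and the untested Myom3, Neb and Myot, with 16 to 222.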
